A study of Sus scrofa with 12 samples.

Results

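Glutathione transferase and antioxidant genes were followed by symbol on the array: GSTM3, GSTP1, NQO1, PRDX1, GPX1, SOD1, SOD2 and CAT. Of these 8 genes 7 had a probe, and GSTP1 was not measured by any probe that carried its symbol. The 7 genes had 12 probes among 43769, and they were 7 of the 11908 genes named on the array. CAT and NQO1 had 3 probes each, GSTM3 had 2, and the other 4 genes had 1 probe each. The group was chosen by the ratio of FE and SE embryos over both sexes, where a GSTM3 probe had stood out, and filled up with known antioxidant genes. The ratios of FE and SE embryos are therefore given for these genes as a description, with no test.

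Embryos were recovered on Day 9 after ovulation from primiparous sows of both groups. In FE sows, a heat stimulated during lactation was used for artificial insemination. In SE (Skip-a-Heat) sows, lactational heat was also stimulated, but insemination waited for the next oestrus cycle. Each group had 3 sows, whose embryos were sexed by PCR and pooled by sex, 5 embryos to a pool and 1 sow to a pool. An FE pool and an SE pool of the same sex shared each of 12 two-colour arrays, which formed 3 male and 3 female sets, each with a first array and its dye-swap array. Because each sow gave a pool of either sex, the 6 sets are not fully independent.

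Each value is a ratio within an array, read as log2, and levels of different genes cannot be set against each other. The sign of each dye-swap array was turned, and the mean of the 2 arrays is the set ratio. The labels name Cy3 for FE on all 12 arrays, including those described as swaps, and they do not say which channel was divided by which. A negative ratio here means negative on the first arrays, and which of FE and SE embryos had more of a transcript is not settled. With ratios alone, the presence of embryonic markers could not be checked. In pooled embryos, fewer cells of a type and less RNA per cell cannot be told apart.

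Glutathione transferases join glutathione to reactive compounds, and GSTM3 belongs to their mu class. NQO1 reduces quinones and is a textbook target of the transcription factor NRF2. Superoxide is turned into hydrogen peroxide by SOD1 in the cytosol and by SOD2 in mitochondria. The peroxide is then broken down by catalase (CAT) in peroxisomes, by the selenoenzyme GPX1 with glutathione, and by the peroxiredoxin PRDX1 with thioredoxin. Preimplantation embryos are known to be sensitive to oxidative stress.

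GSTM3 was measured by probes 32288 and 39946, and they gave different pictures. On probe 32288 the set ratios were -1.35, -1.43 and -1.70 in male sets 1 to 3, and -1.05, -1.49 and -0.76 in female sets 1 to 3. All 6 were negative, the mean was -1.30 ± 0.34 (SD, n = 6 sets), which is 2.45-fold, and single sets lay between 1.69-fold and 3.24-fold. On probe 39946 the set ratios were -0.02, -0.17 and -0.21 in male sets 1 to 3, against -0.27, -0.01 and 0.13 in female sets 1 to 3, with a mean of -0.09 ± 0.15 (SD, n = 6 sets). The ranges of the 2 probes did not overlap. Within a set, probe 32288 was lower than probe 39946 by between 0.79 and 1.49, and the mean difference was -1.21 ± 0.30 (SD, n = 6 sets).

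The arrays behind these ratios show the same contrast. Probe 32288 had deposited values of -1.12, -1.36 and -1.43 on the first arrays of the male sets and 1.58, 1.49 and 1.96 on their swap arrays. In the female sets it had -1.19, -1.31 and -0.79 on the first arrays and 0.91, 1.67 and 0.73 on the swap arrays. Its sign thus turned between the 2 arrays in 6 of 6 sets. The gap left between a first array and its turned swap was 0.06 to 0.53. Probe 39946 changed sign in 5 of 6 sets, with values between -0.17 and 0.40 over its 12 arrays.

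**Figure D1:**
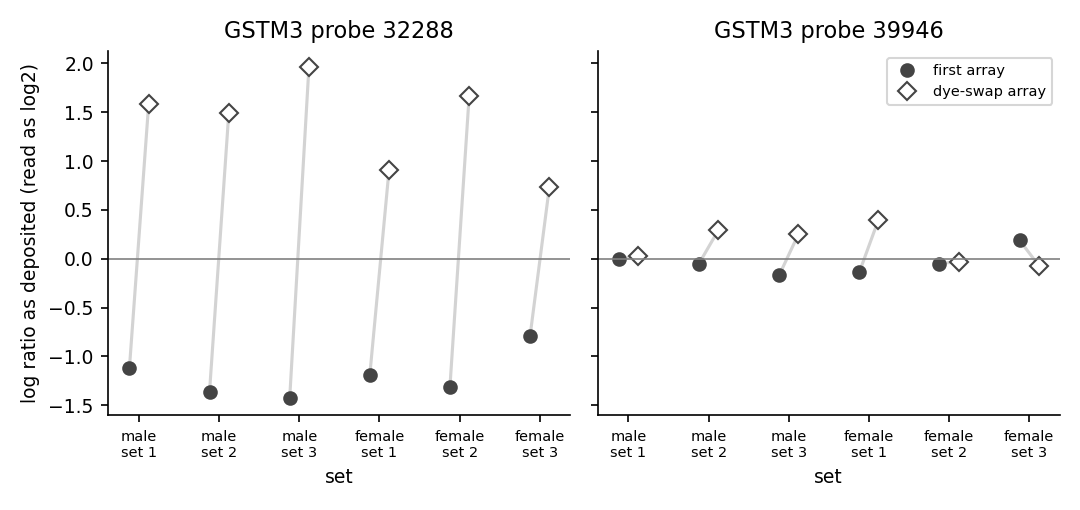
Deposited log ratios (read as log2) of the GSTM3 probes 32288 and 39946 in the 6 sets, with filled circles for first arrays, open diamonds for dye-swap arrays and a line joining the 2 arrays of a set. Probe 32288 is negative on every first array and positive on every swap array, whereas probe 39946 stays between -0.17 and 0.40.

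Such a gap between the probes of a gene was rare on this array. Among 1781 genes with 2 probes, the median gap between their mean ratios was 0.08, and GSTM3 was the 1 gene with a gap of its size. Probe 32288 ranked 52 of 43769 probes by the size of its mean ratio. The 52 probes had a median SD between sets of 0.91, and 0 of them had a smaller SD than GSTM3. Its smallest set ratio was 0.76 in size, and 5 probes on the array, itself included, had 1 sign in all 6 sets and no set ratio below that size. Of these, 3 were named: GSTM3, the cytosolic mannosidase gene MAN2C1 and the neuromedin gene NMU. One sign in all 6 sets was found for 1 of the 12 probes (GSTM3 32288) and for 4.14% of all probes. These ranks describe the probe that led to the choice of the gene and test nothing. The gene table gave no transcript accession for either GSTM3 probe, so the part of the transcript that each one reads, and whether it also reads another mu-class gene, was not tested.

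The named genes with set ratios most like those of probe 32288 were found by the root mean square difference over the 6 sets. PSPH, the last enzyme of serine synthesis, was nearest at 0.62, with a mean ratio of -0.86 ± 0.51 (SD, n = 6 sets). Its other 3 probes had means of -0.05, -0.33 and -0.40. B2M, the partner chain of MHC class I proteins, followed at 0.71, and TMEM38B, a cation channel of the endoplasmic reticulum, was at 0.76. Genes listed as LOC100626247 and LOC100519082 were at 0.74 and 0.78. A probe at 0 in every set would have been at 1.33, and the second GSTM3 probe was at 1.24.

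NQO1, the quinone reductase, had small ratios on its 3 probes. Probe 4756 had -0.01, 0.04 and 0.08 in male sets 1 to 3, against -0.09, -0.17 and -0.35 in female sets 1 to 3. Probe 22709 had 0.24, 0.09 and 0.82 in male sets 1 to 3, against -0.04, 0.20 and -0.04 in female sets 1 to 3. Probe 23234 had 0.07, 0.20 and 0.15 in male sets 1 to 3, against -0.11, 0.33 and -0.21 in female sets 1 to 3. The means were -0.08 ± 0.16, 0.21 ± 0.32 and 0.07 ± 0.20 (SD, n = 6 sets), and each probe had sets of both signs. Probe 22709 in male set 3 was the 1 value of the gene above 0.35.

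The superoxide dismutases SOD1 and SOD2 each had set ratios on both sides of 0. SOD1, the cytosolic enzyme, had 0.86, 0.14 and -0.69 in male sets 1 to 3 and -0.26, 1.38 and 0.05 in female sets 1 to 3. Its mean was 0.25 ± 0.76 (SD, n = 6 sets), and without female set 2 it was -0.0022. SOD2, the mitochondrial enzyme, had -0.16, -0.41 and 0.14 in male sets 1 to 3, against -0.17, 0.11 and 0.55 in female sets 1 to 3, with a mean of 0.01 ± 0.33 (SD, n = 6 sets). Male and female sets overlapped for both genes.

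Among the enzymes that remove peroxide, PRDX1 had -0.82, 0.14 and -1.02 in male sets 1 to 3, against 0.55, -0.20 and 0.90 in female sets 1 to 3. Its mean was -0.08 ± 0.75 (SD, n = 6 sets). GPX1 had -0.26, -0.66 and -0.67 in male sets 1 to 3, against 0.09, -0.22 and -0.15 in female sets 1 to 3. With a mean of -0.31 ± 0.30 (SD, n = 6 sets) it was negative in 5 of 6 sets. Its male ratios all lay below its female ratios, but narrowly. The highest male ratio was -0.26 (set 1), close to the lowest female ratio of -0.22 (set 2). NQO1 probe 4756 had the reverse order, with male ratios of -0.01 to 0.08 above female ratios of -0.35 to -0.09. How often the sexes separate like this over all probes was not counted.

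The 3 probes of CAT did not run together. Probe 5432 had -0.01, 0.01 and 0.24 in male sets 1 to 3, against 0.12, 0.22 and -1.12 in female sets 1 to 3. Probe 19730 had 0.05, -0.03 and -0.06 in male sets 1 to 3, against -0.24, 0.06 and -0.99 in female sets 1 to 3. On these probes female set 3 stood apart from the other 5 sets, and both arrays of that set showed it (-0.96 and -1.27 on probe 5432, first array and turned swap, and -0.98 on the turned swap array of probe 19730). Probe 19635 had -0.06, -0.18 and 0.75 in male sets 1 to 3, against -0.44, 0.45 and 0.36 in female sets 1 to 3, so that female set 3 was positive there. The means were -0.09 ± 0.51, -0.20 ± 0.40 and 0.15 ± 0.45 (SD, n = 6 sets) for probes 5432, 19730 and 19635. Without female set 3 the means of probes 5432 and 19730 were 0.12 and -0.05.

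Over the 12 probes the median of the mean ratios was -0.08, with 7 negative and 5 positive, against a median of -0.0044 and 51.9% negative over all probes. Apart from GSTM3 32288, the other 11 probes had means between -0.31 and 0.25. The median size of the mean ratio was 0.12 over the 12 probes and 0.06 over all probes.

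**Figure D2:**
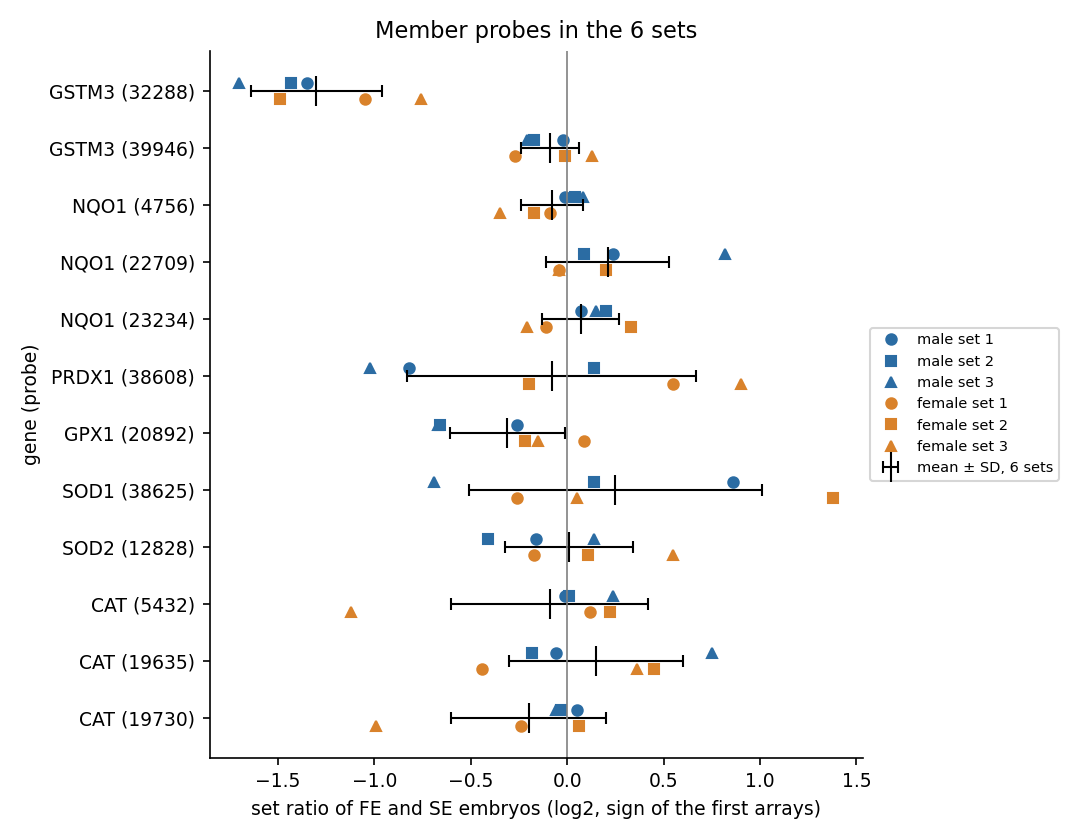
Set ratios of the 12 probes (log2, sign of the first arrays, horizontal axis), with blue symbols for male and orange symbols for female sets 1 to 3 and a black tick with bars for the mean ± SD of 6 sets. GSTM3 32288 lies at -1.70 to -0.76 in all sets, while every other probe has sets on both sides of 0.

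Whether the sexes differed in their ratio was tested, since that difference did not enter the choice of genes. None of the 12 probes passed in limma's test (male minus female, adjusted p = 0.9997 for each), and 0% of all 43769 probes did. At an unadjusted p under 0.05 there were 2 of the 12, against 1.87% of all probes. They were PRDX1, with -0.57 ± 0.62 in male and 0.41 ± 0.56 in female sets (SD, n = 3 each; difference -0.98, 95% confidence interval -1.94 to -0.03; limma adjusted p = 0.9997), and GPX1. GPX1 had -0.53 ± 0.23 in male and -0.09 ± 0.16 in female sets (SD, n = 3 each; difference -0.44, interval -0.82 to -0.05; limma adjusted p = 0.9997). Slide 1 held male sets 1 and 2 and slide 2 held female sets 1 and 2, so sex and slide cannot be told apart there. Slide 3 was the 1 slide with a set of each sex. Between those sets, which are also part of the test, the difference was -1.91 for PRDX1 and -0.52 for GPX1.

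For GSTM3 32288 the ratio averaged -1.49 ± 0.18 in male and -1.10 ± 0.37 in female sets (SD, n = 3 each), a difference of -0.39 with an interval of -0.90 to 0.12. The interval lay within a 2-fold difference for 8 of the 12 probes, and for 83.9% of all probes. It reached beyond 2-fold for SOD1 (-1.60 to 1.03), PRDX1, and CAT probes 5432 (-0.54 to 1.21) and 19730 (-0.27 to 1.02).

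The sets were also compared with each other, with the disagreement of paired first and swap arrays as the error. The test is one of pools and slides rather than of FE against SE embryos, and 37.7% of all probes and 43.2% of named probes passed. Of the 12 probes 9 passed, from all 7 genes (limma's moderated F, Benjamini-Hochberg over all probes). SOD1 had the largest F of the 12 (63.2, adjusted p = 1.13e-06), with a standard error of 0.10 for a set. The SOD1 ratio of 1.38 in female set 2 and that of -0.69 in male set 3 are thus many standard errors apart. PRDX1 followed (F = 33.1, adjusted p = 1.27e-05), then CAT 5432 (20.8, 9.25e-05), CAT 19635 (20.6, 9.53e-05), CAT 19730 (17.4, 0.000202) and SOD2 (12.2, 0.000913). NQO1 22709 (8.77, 0.00362), GPX1 (7.65, 0.00621) and GSTM3 32288 (6.43, 0.0119) also passed. GSTM3 39946 (adjusted p = 0.191) and NQO1 probes 4756 (0.242) and 23234 (0.284) did not.

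Several of these calls were lost when a single set was left out. The share of all probes that passed with a set left out was not counted, so the losses cannot be called particular to these genes. Without female set 3 the test was passed by 6 of the 12 probes, and CAT 5432 (limma adjusted p = 0.535), CAT 19730 (0.448) and GSTM3 32288 (0.156) were lost. Without male set 3, NQO1 22709 was lost (limma adjusted p = 0.447). SOD1, PRDX1, CAT 19635, SOD2 and GPX1 passed without any 1 of the sets, with adjusted p of at most 0.0417.

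**Figure D3:**
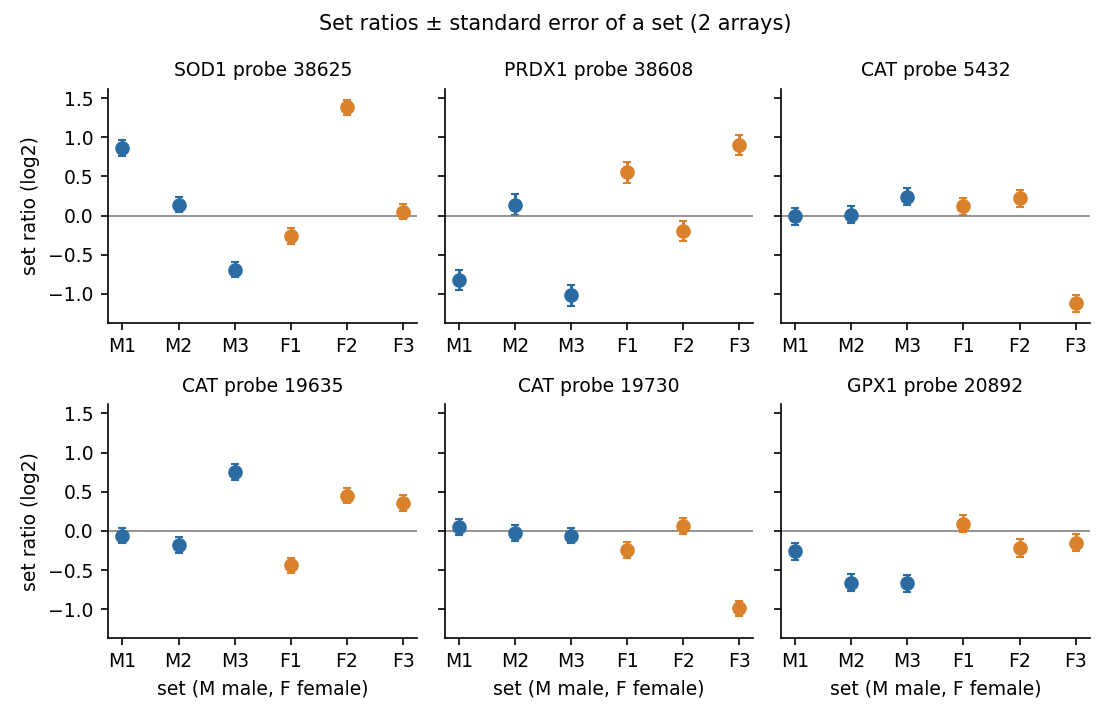
Set ratios (log2) of SOD1, PRDX1, the 3 CAT probes and GPX1 in male sets M1 to M3 (blue) and female sets F1 to F3 (orange). Bars give limma's standard error of a set. It comes from the disagreement of first and swap arrays over all sets, and is the same for every set of a probe. SOD1 runs between -0.69 and 1.38, and female set 3 stands apart on CAT probes 5432 and 19730 but not on probe 19635.

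Marker lists were read beside these set differences. The median ratio of hypoblast markers, of which 2 of 4 genes were measured, was 0.35, 0.13 and -0.44 in male sets 1 to 3 and 0.10, 0.48 and -0.17 in female sets 1 to 3. Trophectoderm markers (7 of 7 genes) had medians of 0.24, 0.40 and -0.16 in male sets 1 to 3. In female sets 1 to 3 they had 0.13, 0.08 and -0.20. Epiblast markers (2 of 3 genes) had medians between -0.06 and 0.32. Uterine markers (6 of 6 genes) lay between -0.08 and 0.08, and blood markers (4 of 6 genes) between -0.07 and 0.06. The part of cell makeup in the set differences was not tested.

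A part of the deposited value that keeps its sign and size on the swap array cancels in the set ratio. An effect of the dye, the channel or the probe would act so, and the source of this part was not tested. The mean of the 2 deposited values of a set, before any sign was turned, measured this part, and its mean over 6 sets was tested against 0. It passed for 3 of the 12 probes and for 37.3% of all probes. PRDX1 had 0.39 ± 0.15 (SD, n = 6 sets; limma adjusted p = 0.000464), GPX1 -0.25 ± 0.10 (limma adjusted p = 0.00227) and NQO1 22709 0.12 ± 0.10 (limma adjusted p = 0.0404). The PRDX1 and GPX1 calls held without any 1 set (adjusted p of at most 0.00881). That of NQO1 22709 was lost without any set other than female set 3, with adjusted p between 0.0623 and 0.127.

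GSTM3 32288 had a sign-keeping part of 0.10 ± 0.16 (SD, n = 6 sets; limma adjusted p = 0.151), against a ratio of -1.30. For PRDX1 this part was larger than the mean ratio of -0.08. Its first arrays in female set 1 and male set 2 read 1.11 and 0.50, and the swap arrays read 0.0018 and 0.23, without a change of sign. For GPX1 all 6 first arrays were negative, between -0.95 and -0.29, while the turned swap arrays lay between -0.41 and 0.52.

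**Figure D4:**
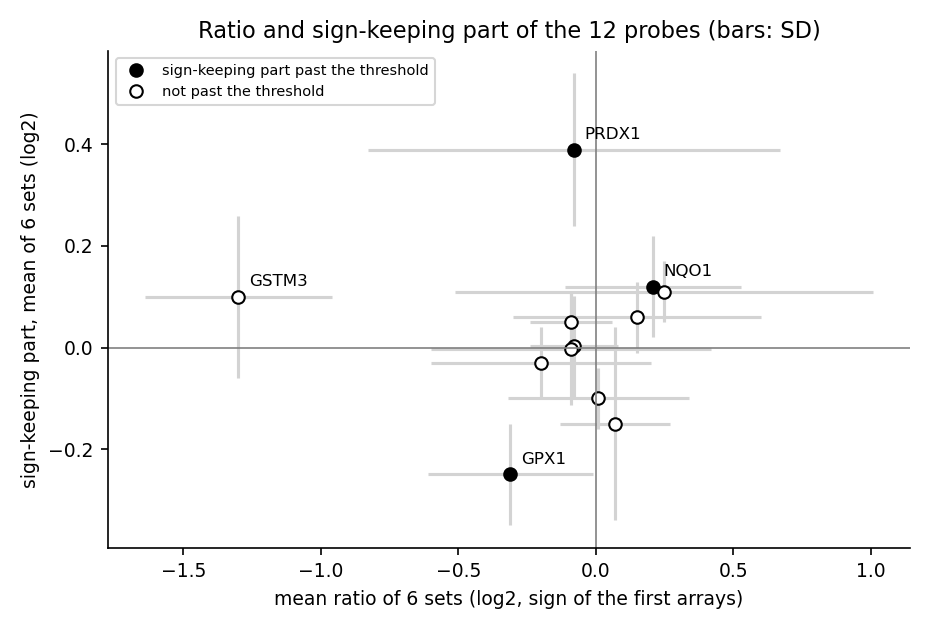
Mean set ratio (log2, horizontal axis) against the mean sign-keeping part (log2, vertical axis) of the 12 probes over 6 sets, with bars for the SD and filled circles for probes whose sign-keeping part passed limma's test. PRDX1 (0.39) and GPX1 (-0.25) lie farthest from 0 on the vertical axis, and GSTM3 32288 (-1.30) lies farthest on the horizontal axis.

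Other genes of the same systems were tested for a ratio of FE and SE embryos over both sexes. The list held 83 genes, of which 58 were measured by 99 probes. In limma's test 0 of the 99 probes passed, against 0.00457% of all probes. At an unadjusted p under 0.05 there were 5, which is 5.05% against 5.92% of all probes. Of these, 1 was positive and 4 were negative, and over all probes 3.48% were positive and 2.45% negative. The median ratio of the 99 probes was -0.05, and the 95% interval lay within a 2-fold difference for 94.9% of them and for 97.4% of all probes.

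Of other glutathione transferases, 9 of 18 genes were measured, and 0 of their 11 probes had an unadjusted p under 0.05. None of the measured genes was of the mu class of GSTM3. GSTA4, which acts on lipid peroxidation products, had -0.48 ± 0.77 (SD, n = 6 sets), and the microsomal transferase gene MGST2 had -0.34 ± 0.73. The 2 probes of the theta-class gene GSTT1 had -0.06 and -0.05. No transferase probe on the list was more negative than GSTA4.

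In glutathione synthesis and recycling, with 15 of 18 genes measured, the glutaredoxin genes GLRX2 and GLRX3 had the smallest p. GLRX2 had -0.36 ± 0.31 (SD, n = 6 sets, with a limma adjusted p of 0.768), and -0.02 on its second probe. GLRX3 had -0.40 ± 0.32 and was negative in 6 of 6 sets (limma adjusted p = 0.793), while its other 3 probes had -0.05, -0.26 and -0.13. GGCT, an enzyme of glutathione breakdown, was the positive probe among the 5 above, with 0.41 ± 0.45 (SD, n = 6 sets, limma adjusted p = 0.842) and positive values in 4 of 6 sets. GCLC and GCLM, the subunits of the enzyme that starts glutathione synthesis, had 0.04 ± 0.20 and 0.07 ± 0.20.

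Among peroxidases and superoxide enzymes, 10 of 15 genes were measured. PRDX4, the peroxiredoxin of the endoplasmic reticulum, had -0.25 ± 0.14 (SD, n = 6 sets), negative in 6 of 6 sets (limma adjusted p = 0.762). CCS, the copper chaperone of SOD1, had -0.10 ± 0.17. In the thioredoxin system, with 10 of 11 genes measured, TXNIP, an inhibitor of thioredoxin, had -0.53 ± 0.96. TXNL1 had -0.43 ± 0.60, and -0.14 ± 0.46 on its other probe.

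The NRF2 pathway had 14 of 21 genes measured, with 15 of 30 probes negative. ME1, the cytosolic malic enzyme, which makes NADPH, had 0.36 ± 0.48 (SD, n = 6 sets, with a limma adjusted p of 0.863), while its other probes had -0.11 and 0.09. BACH1, a repressor at NRF2 target genes, had -0.15 ± 0.14 and was negative in 6 of 6 sets (limma adjusted p = 0.875). The 4 probes of NFE2L2, the gene of NRF2 itself, had 0.07, 0.18, -0.14 and -0.11. KEAP1, which marks NRF2 for degradation, had 0.26 ± 0.49.

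**Figure D5:**
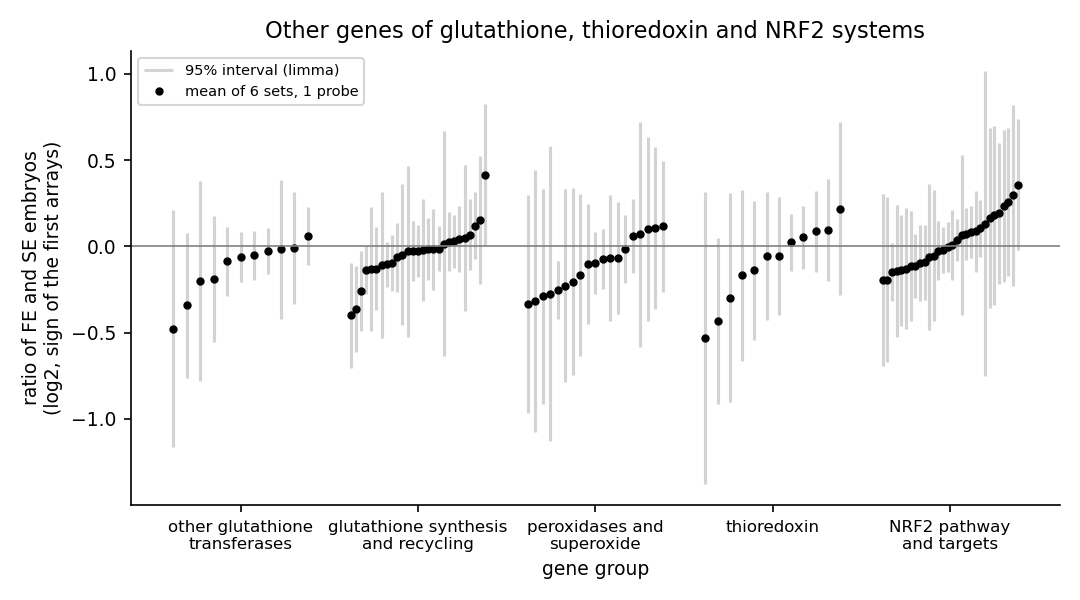
Mean ratio of 6 sets (log2, vertical axis, black points) with limma's 95% interval (grey bars) for the 99 probes of 58 other genes in 5 groups. Means lie between -0.53 and 0.41.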

How the data were processed

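The authors deposited log2 ratios, 1 for each probe on each array. Log2 was read from their range of -4.99 to 5.97. For the log base, normalization and numerator channel, the sources used here give nothing. Amplified RNA carried Cy3 or Cy5, per the labels' protocols. Array medians lay within 0.0108 of 0. Intensities were not analysed, so dim probes were not filtered, and the number of arrays limits precision.

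Of 43794 probes, 25 with a missing value were left out. The platform's gene table gave the symbols, of which 354 were updated with the RefSeq table of the Sscrofa11.1 assembly. Swap arrays were turned because deviations of first and swap arrays over sets correlated at -0.728. Within sets the 2 arrays correlated at -0.766 to -0.149 over probes, most weakly in male set 1. Set ratios went into limma 3.58.1 under R 4.3.3 (1 mean per sex, prior degrees of freedom 2.3). Differences between sets were fitted on single arrays, with array role as a term. P-values were adjusted by Benjamini and Hochberg's method over all probes, and 0.05 was the threshold.

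The genes, the wider list and the marker lists were chosen with earlier results of these data known. The rule for naming took every probe of the chosen genes, the 2 genes of smallest p in each group of the wider list and the 5 genes most like GSTM3 32288. GCLC, GCLM, GGCT, GSTT1, NFE2L2, KEAP1 and the genes of the closing observations were named outside it, after their values were seen. Alternatives were the centring and scale of arrays, first or swap arrays alone, swap signs not turned, arrays as separate values, blocks for slide and set number, robust eBayes (statmod 1.5.0), named probes, gene means, no role term, unadjusted p and each set left out.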

Additional observations from a re-analysis of the deposited data

Results flagged for a closer look

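Of 22 probes examined over the 6 sets (the 12 above and 10 of the wider list), 6 had a set far from the others by Dixon's test at its 95% level. Chance gives about 1 in 20, and 7.43% of all probes had such a set. CAT was at -1.12 on probe 5432 and at -0.99 on probe 19730, both in female set 3, so 2 of the 6 come from 1 gene in 1 set. NQO1 22709 was at 0.82, TXNL1 33041 at 0.71 and CCS 1455 at -0.43, each in male set 3, and BACH1 33745 was at -0.42 in male set 2. Male set 3 and female set 3 shared slide 3, and the part of that slide was not tested.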

How the results depend on the processing

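The median of the mean ratios over the 12 probes was -0.08 and stayed between -0.08 and -0.04 with each set left out in turn. With swap signs not turned it was 0.03, GSTM3 32288 had 0.10, and NQO1 23234 had -0.15. Of the wider list, 39 of 99 probes then passed in place of 0. By construction that setting measures the sign-keeping part, which passed for 37.3% of all probes. At an unadjusted p under 0.05, 2 of the 12 probes differed between the sexes in place of 0, against 1.87% of all probes. In the wider list 5 probes in place of 0 had a ratio, against 5.92% of all probes. The sign-keeping part passed for 6 of the 12 in place of 3, and the share of all probes at that level was not counted. With the set number as a replicate block, 0 probes passed in the sex difference and 0 in the wider list, as without it. Deviations of male and female sets of the same number correlated at 0.05, 0.41 and 0.26 for sets 1, 2 and 3. Those of sets of different numbers correlated at -0.35 to 0.06. The labels do not say whether a number stands for the same sows, and the main fits did not take the numbers as pairs. Under the other alternatives the counts of probes stayed at 0 in these 2 tests. Between sets, 6 to 9 of the 12 probes passed, with 6 of 7 genes as gene means and 6 probes without a term for array role. The sign-keeping part passed for 2 to 4 probes or genes.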

Other observations

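Some antioxidant genes outside the chosen group differed between sets, and they were named after their values were seen. The probes of PRDX5, FTH1 and PRDX3 ran together, and those of PRDX6 did not. The 3 probes of PRDX5, a peroxiredoxin of mitochondria and peroxisomes, had -1.70, -1.81 and -1.88 in male set 3, and 0.55, 0.51 and 0.62 in female set 2. Each passed the comparison between sets (limma adjusted p of at most 6.72e-07), while their means over 6 sets were -0.23, -0.34 and -0.29. FTH1, the heavy chain of the iron store ferritin, had -0.92 or less on its 2 probes in male set 3, and 0.78 and 0.86 in female set 1. FTL, the ferritin light chain, had -1.73 in male set 3 and 0.94 in female set 1 on its 1 probe. PRDX3, the mitochondrial peroxiredoxin, had 0.92 on both probes in female set 2, and 0.48 and 0.58 in male set 3. PRDX6 had -1.07, 1.09 and -0.55 in female set 3 on its 3 probes. In the wider list 65 of 99 probes passed between sets (65.7%), against 43.2% of named probes. Pools and slides are compared here, and FE is not compared with SE.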
